A study of Mus musculus with 6 samples.

Results

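The genes described here are 53 factors of ribosomal RNA synthesis and ribosome assembly, chosen by symbol from a list of the pathway, out of 25865 genes in the deposited table. They comprise the 45S precursor row Rn45s, 10 RNA polymerase I genes, 7 snoRNP protein genes, 4 multifunctional nucleolar genes, 16 small subunit factors and 15 large subunit factors. All 53 matched a symbol and all 53 passed the filter on low values. Ribosome production begins when RNA polymerase I transcribes the 45S precursor RNA from repeated genes in the nucleolus. Small nucleolar ribonucleoproteins (snoRNPs) then modify that precursor, and assembly factors cut it and fold it with ribosomal proteins into the small and the large subunit. Growing lymphocytes make many ribosomes, and many of these genes are known targets of the transcription factor MYC.

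The samples were ILC2s (group 2 innate lymphoid cells, tissue-resident lymphocytes that secrete IL-5 and IL-13) sorted from the large intestine of C57BL/6 mice, with the tissue labelled colon. Toyocamycin is an adenosine analogue known to block ribosomal RNA processing and the RNase of the stress sensor IRE1. The toyocamycin group received it for 16 h (3 samples), and the Control group received vehicle (3 samples). Both groups came from cells kept for 5 days in medium with 10 ng/mL of each of 4 cytokines, IL-33, IL-25, IL-7 and IL-2, so Control means cytokine-activated and not resting cells. The sources used here do not give the dose of toyocamycin or the age and number of the mice. Values are normalised read counts, which are a gene's reads over the size factor of the sample, and values per sample are given in the order of replicates 1, 2 and 3. Totals were 22303455 to 36742639 reads with toyocamycin and 25461442 to 27003686 in Control. The 11 ILC2 markers summed to 307634 to 335250 normalised reads in the toyocamycin samples, against 397266 to 409207 in the Control samples. All 11 were detected in every sample, the lowest being Thy1 at 112 to 132 with toyocamycin and 123 to 149 in Control. With toyocamycin 3 were called higher: Rora (log2 change 3.71, the largest of the 11), Gata3 (1.01) and Il1rl1 (0.26). Called lower were 7, Il13 (−2.80), Il7r (−1.58) and Areg (−1.33) most. In normalised reads, the largest falls were in the cytokine genes Il13 (mean 88695 in Control, 12757 with toyocamycin) and Il5 (101461 and 59663). The part of this shift in the members' changes was not tested. Summed markers of T cells reached 239 and of B cells 30.8 at most in any sample, but those of macrophages and dendritic cells reached 1547. Fibroblast and endothelial markers summed to 624 to 829 with toyocamycin and 1137 to 1332 in Control. Most of that sum was Pecam1 (mean 565 with toyocamycin, 1012 in Control), the only 1 of the 5 markers that was called. Other lists are given with the processing.

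Most genes of the pathway had more reads after toyocamycin, but not all steps and not all partners of a complex moved the same way. Of the 53 members, 39 were higher and 11 lower with limma (threshold 0.05, adjusted over all 16223 genes tested), and 3 did not pass. The members' shares were 73.6% higher and 20.8% lower, against 32.8% higher and 33.1% lower of all genes tested (65.9% in either direction). Changes of at least 2-fold were present in 19 higher and 2 lower members, where 17.0% of all genes were higher and 20.5% lower by that size. The median log2 change was 0.58 over the members and −0.03 over all genes tested. The deposited size factors nearly equal factors set by the median ratio of genes to their mean over samples (0.757 against 0.756 in toyocamycin replicate 1). Such factors place the typical gene near no change. The all-gene median near 0 and the near-even all-gene shares thus follow in part from the scaling. In 49 of 53 members (92.5%) the toyocamycin and Control samples did not overlap, 39 above and 10 below Control, while 69.1% of all genes did not overlap (34.2% above and 34.9% below).

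Part of this balance depended on scaling. When every sample was set to the same total (equal totals), all genes tested had a median log2 change of −0.36, and 27 members were higher and 14 lower, with 24.9% of all genes higher and 42.5% lower. The members' median was then 0.24. All 27 were also higher with the deposited scaling, and all 11 lower members stayed lower. The other 12 members called higher with the deposited scaling lost their call, and the 3 uncalled members became lower. In these bulk samples, fewer cells of a type and less RNA per cell cannot be told apart.

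**Figure D1:**
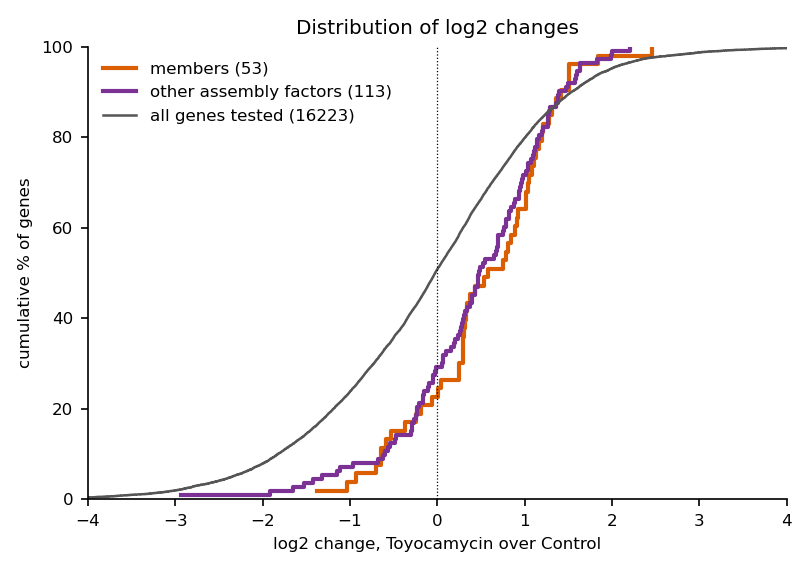
Cumulative share of genes (y axis, %) by log2 change of toyocamycin over Control (x axis) for the 53 members, 113 other ribosome assembly factors and all 16223 genes tested. The members and the other factors lie to the right of all genes, with medians of 0.58 and 0.47 against −0.03.

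The promoters of several members hold the sequence CACGTG, the E-box to which MYC and its partner MAX are known to bind. It is shown here because many genes of the pathway are known MYC targets. RefSeq promoter windows (GRCm38.p6, 250 bases before to 50 after the start) were matched for 46 of 53 members, and CACGTG, which reads the same on both strands, was in 10 of them (21.7%). The share was 11.0% of the 12183 tested genes with a window, 7.15% of all 32851 promoter windows and 18.3% of 93 other assembly factors. Of the 10 members, 9 were called higher and 1 lower, out of 33 higher, 10 lower and 3 uncalled members with a window. Members with a window were thus mostly higher, while 32.8% of all genes tested were higher and 33.1% lower. Calls of all 1337 tested genes with the motif were not counted, so no link of motif and call was tested. With equal totals 5 of the 10 were higher (Ltv1, Rrn3, Tsr1, Utp18 and Wdr43), Utp20 was lower, and Nop2, Pes1, Pno1 and Mdn1 did not pass. In 7 of the 10 it lay only after the start, and in Rrn3, Utp18 and Nop2 before it. Rrn3 carries it at 2 places, 215 and 48 bases before the start, Utp18 at 20 bases and Nop2 at 60 bases. Unlike those of Rrn3 and Utp18, the start used for Nop2 was not found in its transcript, so its distance is less certain. The 3 stretches of Rrn3 and Utp18 follow, 5′ to 3′ on the gene's strand, with the motif in capitals. That of Nop2, which had no call with equal totals, is not printed, so the stretches shown were picked by their calls. A match describes these letters and not binding of a factor.
Rrn3 distal, chr16:13780457-13780516, + strand: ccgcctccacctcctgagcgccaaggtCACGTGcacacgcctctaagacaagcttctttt
Rrn3 proximal, chr16:13780624-13780683, + strand: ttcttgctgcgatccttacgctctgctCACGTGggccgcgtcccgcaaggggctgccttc
Utp18, chr11:93885767-93885813, − strand: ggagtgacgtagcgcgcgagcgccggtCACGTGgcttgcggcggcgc

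The first product of the pathway, the 45S precursor, had the largest log2 change of the 53 members. The row Rn45s held 154362, 228852 and 227068 normalised reads in the toyocamycin samples, against 58932, 38524 and 21287 in the Control samples. The groups did not overlap, but the Control samples differed among themselves by more than 2-fold, with replicate 1 highest and replicate 3 lowest. As a share of assigned reads, Rn45s was 0.524%, 0.735% and 0.781% with toyocamycin, against 0.255%, 0.163% and 0.0903% in Control. The difference passed the threshold (limma log2 change 2.46, SE 0.22, adjusted p = 1.62e-09), with an SE that limma draws toward those of genes of similar level. With DESeq2 on recovered reads the SE was 0.43 (log2 change 2.37, adjusted p = 1.12e-07). With 1 sample left out the limma log2 change ran from 2.07 to 2.81, with an adjusted p of at most 0.000275. How ribosomal RNA was handled in library preparation is not stated in the labels. The precursor holds the sequences of the mature 18S, 5.8S and 28S RNAs, so the reads of Rn45s do not separate precursor from mature RNA.

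A row for the mature RNA of the small subunit, Rn18s, was higher too. It had 1825, 3491 and 3915 in the toyocamycin samples, against 1207, 993 and 514 in the Control samples, without overlap between the groups (log2 change 1.78, SE 0.24, adjusted p = 8.55e-07). Relative to Rn45s, which needs no scaling between samples, Rn18s came to 0.0118, 0.0153 and 0.0172 with toyocamycin, against 0.0205, 0.0258 and 0.0242 in Control. The toyocamycin ratios all lay below the Control ratios. The sources used here do not say how reads matching both rows were assigned, so the ratio is a description of these 2 rows.

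**Figure D2:**
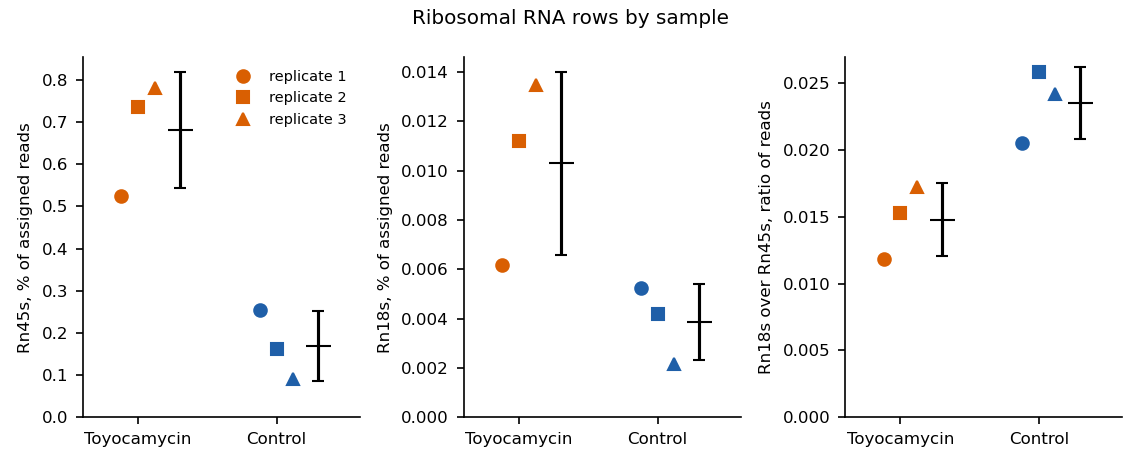
Rn45s and Rn18s as % of assigned reads (left, middle) and the ratio of their reads (right) for 3 toyocamycin and 3 Control samples; symbols mark replicates, and the bar beside them is the mean with SD. Rn45s lies between 0.524% and 0.781% with toyocamycin and between 0.0903% and 0.255% in Control, while the Rn18s to Rn45s ratio is lower with toyocamycin.

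The 10 RNA polymerase I genes split, with 6 higher and 4 lower and a median log2 change of 0.29. With equal totals 4 were higher, 4 lower and 2 did not pass, and the median was −0.06. The counts of this and each later step stand beside 32.8% higher and 33.1% lower of all genes tested. With equal totals these all-gene shares were 24.9% and 42.5%. The lower share of this step, 40%, was thus near that of all genes. Subunits of the enzyme moved apart. Polr1a, the largest and catalytic subunit, had 1447, 1386 and 1396 in the toyocamycin samples, against 2179, 2272 and 2155 in the Control samples, with no overlap (log2 change −0.64, SE 0.061, adjusted p = 5.03e-09). Polr1e, a subunit found in this polymerase alone, had 252, 336 and 282 in the toyocamycin samples, against 417, 441 and 391 in the Control samples. It was also lower without overlap (log2 change −0.53), a call that ended with quantile normalization (adjusted p = 0.27). Polr1c, which RNA polymerases I and III share, rose 1.73-fold (log2 change 0.79). Polr1b, the second-largest subunit, had 1148, 1183 and 1189 in the toyocamycin samples, against 996, 907 and 893 in the Control samples. It was called higher (log2 change 0.33, SE 0.073, adjusted p = 0.000376), but with equal totals its log2 change was −0.02 and did not pass. The ratio of Polr1b to Polr1a, which no scaling touches, was 0.793, 0.854 and 0.851 with toyocamycin, against 0.457, 0.399 and 0.414 in Control.

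Factors that bring the enzyme to its promoter also diverged. Ubtf, which encodes the ribosomal DNA binding protein UBF, fell by 0.59 on the log2 scale (adjusted p = 2.27e-09). Rrn3, which joins the polymerase to the promoter complex and whose E-boxes are printed above, rose 2.03-fold (adjusted p = 2.84e-11). The ratio of Rrn3 to Ubtf was 0.725, 0.780 and 0.737 with toyocamycin, against 0.234, 0.243 and 0.260 in Control. The promoter selectivity complex SL1 has 4 dedicated subunits among the members. Taf1a showed the most positive change of this step, with 693, 680.1 and 698 in the toyocamycin samples, against 221, 256 and 250.1 in the Control samples (log2 change 1.51, SE 0.11, adjusted p = 3.72e-11). Taf1d rose 2.16-fold, although a part of its reads is uncertain: snoRNAs lie inside the gene and 23.2% of its transcript windows occur in another gene. Taf1b had 862, 975 and 865 in the toyocamycin samples, against 735, 745 and 799.6 in the Control samples. The 2 groups of Taf1b values lay close together without overlap, and its call (log2 change 0.24, SE 0.081, adjusted p = 0.0119) ended with equal totals, where the log2 change was −0.11, without Control replicate 1 (0.22) and without toyocamycin replicate 2 (0.19). Taf1c had 487, 605 and 446 in the toyocamycin samples, against 593, 633 and 585 in the Control samples. Its groups overlapped, its adjusted p was 0.0481, and the call ended when any 1 sample other than toyocamycin replicate 2 was left out (−0.27 to −0.15) and with quantile normalization (−0.04). Without toyocamycin replicate 2 it kept its call. In addition, 16.7% of its exon bases overlap the opposite-strand gene Dnaaf1. The ratio of Taf1a to Taf1c was 1.42, 1.12 and 1.57 with toyocamycin, against 0.373, 0.405 and 0.427 in Control.

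**Figure D3:**
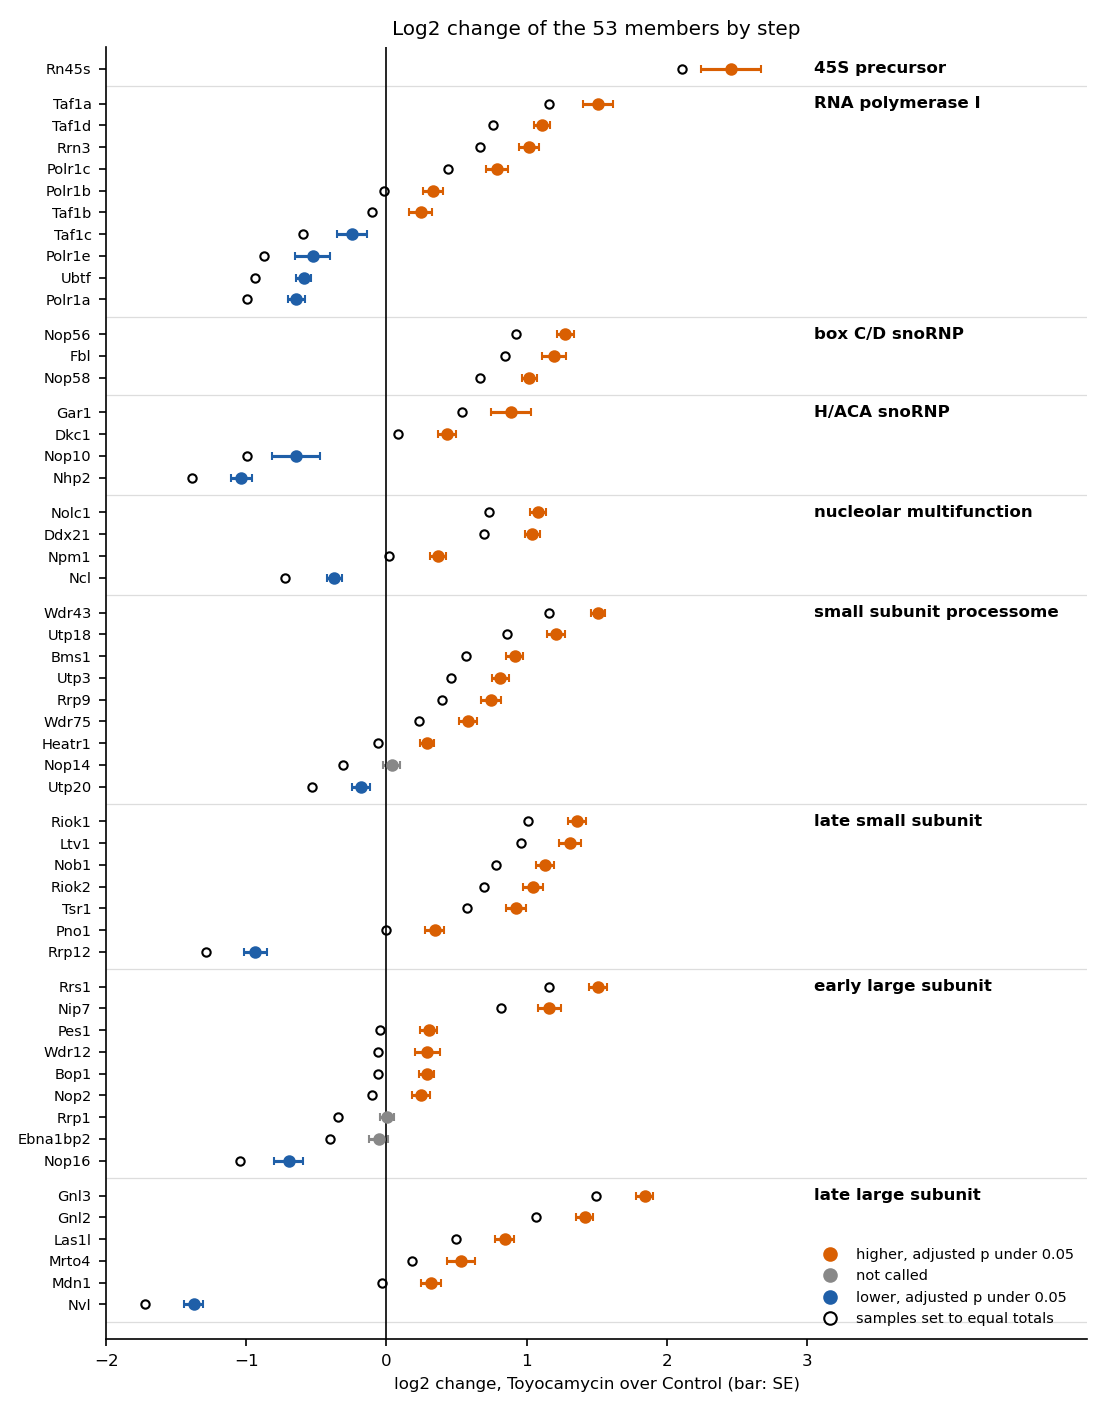
Log2 change of toyocamycin over Control (x axis, bar: SE from limma) for each of the 53 members by step, filled by call, with the value at equal totals as an open circle. Equal totals move every member to the left by about the same amount, so members with a small positive change cross 0 while Gnl3 (1.84) and Nvl (−1.38) keep their side.

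Box C/D snoRNPs, which place methyl groups on ribosomal RNA, have 3 core proteins among the members, and all 3 rose. Nop56, a scaffold protein, showed 8028, 8626 and 7702 in the toyocamycin samples, against 3149, 3298 and 3605 in the Control samples (log2 change 1.28, SE 0.059, adjusted p = 3.9e-14). Its partner scaffold Nop58 had 6419.5, 6936 and 6552 in the toyocamycin samples, against 3114, 3260.4 and 3448 in the Control samples, a 2.03-fold rise and the smallest of the 3. Fbl, the methyltransferase fibrillarin, rose 2.29-fold. All 3 stayed higher with equal totals, at 0.93, 0.67 and 0.85 on the log2 scale. Of all 50-base windows of the longest Fbl transcript, 73.0% also occur in a transcript of another gene, and 37.6% of those of Nop56, so their counts depend on how reads with several matches were treated.

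H/ACA snoRNPs, which convert uridine to pseudouridine, have 4 core proteins, of which 2 were higher and 2 lower (1 higher, 2 lower and 1 not passing with equal totals). Shares of all genes tested were 32.8% higher and 33.1% lower, or 24.9% and 42.5% with equal totals. Dkc1, the pseudouridine synthase dyskerin, was higher, with 2167, 2431 and 2342 in the toyocamycin samples, against 1742, 1744 and 1646 in the Control samples (log2 change 0.43, adjusted p = 2.78e-06). Equal totals removed the call (log2 change 0.09, adjusted p = 0.172). Gar1, a core protein of the mature particle, had 293, 295 and 288 in the toyocamycin samples, against 168, 151 and 154 in the Control samples, the most positive change of the 4 (log2 change 0.89, SE 0.14, adjusted p = 9.34e-06). Nhp2 fell 2.05-fold, with 674, 679 and 647 in the toyocamycin samples, against 1330.1, 1324 and 1449.9 in the Control samples (log2 change −1.04, SE 0.074, adjusted p = 5.75e-11). Nop10, the smallest of the 4 proteins, had 152, 197 and 125 in the toyocamycin samples, against 236, 229.9 and 267 in the Control samples. It was lower as well (log2 change −0.65), and its call ended with quantile normalization (−0.13, adjusted p = 0.512). Within a sample, the ratio of Dkc1 to Nhp2 was 3.22, 3.58 and 3.62 with toyocamycin, against 1.31, 1.32 and 1.13 in Control. For Gar1 over Nop10 it was 1.93, 1.49 and 2.30 with toyocamycin, against 0.709, 0.656 and 0.576 in Control. Both ratios were higher in every toyocamycin sample than in any Control sample.

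Among the multifunctional nucleolar proteins, nucleolin was lower and the other 3 were higher, of which 2 stayed higher with equal totals. Ncl, which binds the precursor and shapes early processing, had 21183, 22872 and 21467 in the toyocamycin samples, against 27115, 28229 and 29404 in the Control samples, and it was lower without overlap (log2 change −0.37, SE 0.052, adjusted p = 1.68e-06). Nolc1, a chaperone that accompanies snoRNPs, had 8015, 8430.2 and 7306 in the toyocamycin samples, against 3615, 3772 and 3810.0 in the Control samples and the most positive change of the 4 (log2 change 1.08, SE 0.057, adjusted p = 2.91e-13). Ddx21, an RNA helicase of early processing, rose 2.06-fold. Npm1, the nucleolar chaperone nucleophosmin, had 9503, 10483 and 10078 in the toyocamycin samples, against 7432, 7616 and 8239 in the Control samples. It was called higher (log2 change 0.37), but not with equal totals (0.02), and it was called lower with quantile normalization (−0.13, adjusted p = 0.014). Of the Npm1 windows, 40.9% occur in other genes. The ratio of Nolc1 to Ncl was 0.378, 0.369 and 0.340 with toyocamycin, against 0.133, 0.134 and 0.130 in Control.

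**Figure D4:**
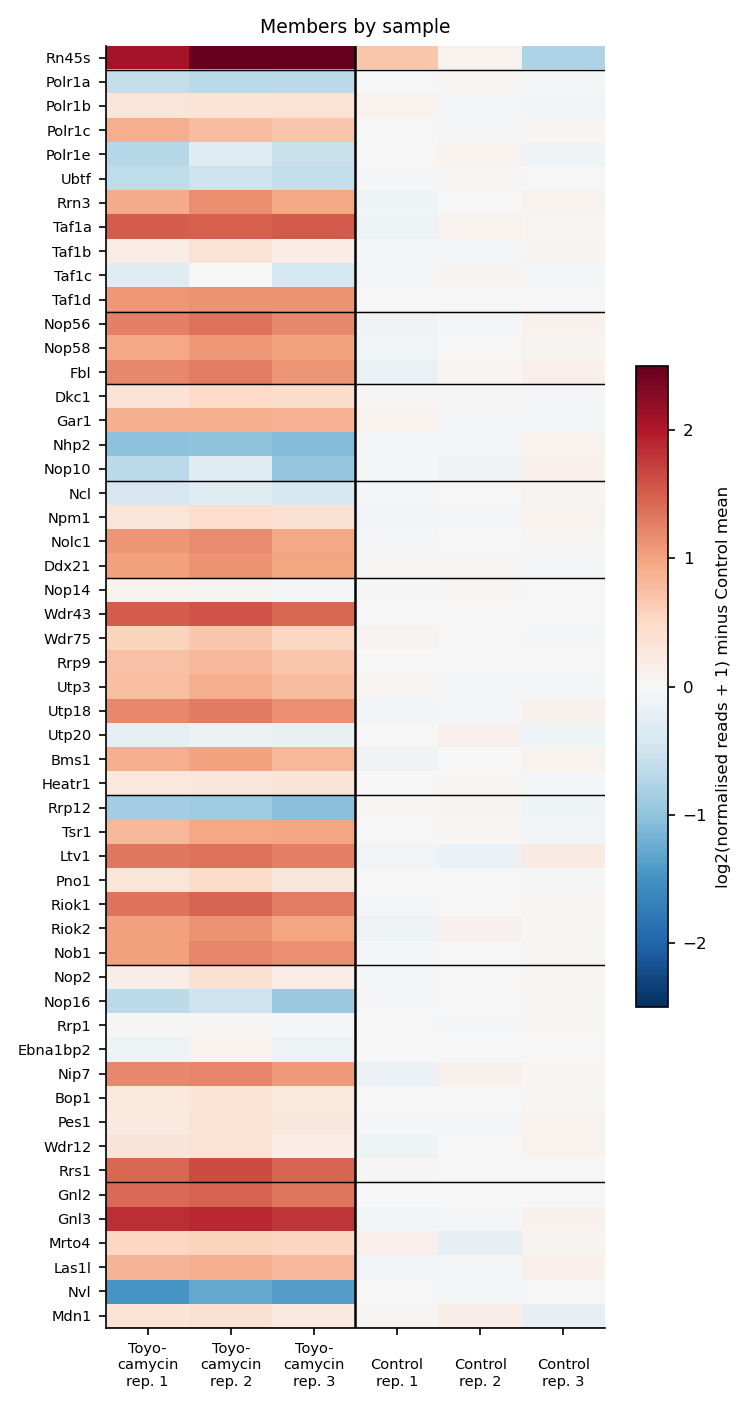
Each member (rows, by step) in each sample (columns), coloured by log2(normalised reads + 1) minus the mean of the 3 Control samples. The 3 toyocamycin samples look alike in nearly every row, and Rn45s is the row with the widest differences among Control samples.

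The small subunit processome is the large particle that assembles on the precursor as it is made. Of its 9 members 7 were higher, 1 was lower and 1 did not pass, with a median log2 change of 0.75. With equal totals 6 were higher and 2 lower, and the median was 0.40. Wdr43, a protein of the subcomplex that starts this assembly, rose most, with 6949, 7165 and 6596 in the toyocamycin samples, against 2414, 2443 and 2408 in the Control samples (log2 change 1.51, SE 0.053, adjusted p = 3.88e-16). Utp18, printed above with its E-box, rose 2.32-fold, Bms1, a GTPase, 1.88-fold, Utp3 1.76-fold, Rrp9, a U3 snoRNP protein, 1.68-fold, and Wdr75, a partner of Wdr43, 1.5-fold. Heatr1, which belongs to the same starting subcomplex, had 3861, 3903 and 3984 in the toyocamycin samples, against 3216, 3298 and 3096 in the Control samples. These groups did not overlap (log2 change 0.29), but the sign turned with equal totals (−0.06, no call), and with quantile normalization Heatr1 was called lower (−0.17, adjusted p = 0.00456). Nop14 had 2407, 2371 and 2165 in the toyocamycin samples, against 2206, 2321 and 2229 in the Control samples. Its groups overlapped and it did not pass (adjusted p = 0.606), and it was called lower with equal totals (−0.31, adjusted p = 4.63e-05) and with quantile normalization (−0.31). Utp20, a large scaffold protein, was the 1 lower member, with 1776, 1880.1 and 1816 in the toyocamycin samples, against 2089, 2216 and 1911 in the Control samples (log2 change −0.18, SE 0.065, adjusted p = 0.0186). The highest toyocamycin sample was just under the lowest Control sample, and leaving out Control replicate 1 or 2 or toyocamycin replicate 1 or 3 ended the call (log2 change −0.18 to −0.13).

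Late small subunit factors, which carry the precursor particle to the cytoplasm and finish its RNA, had a median log2 change of 1.05. Of 7, 6 were higher and 1 lower, and with equal totals 5 were higher and 1 lower with a median of 0.70. The atypical kinase gene Riok1 rose most, with 2939.7, 3156 and 2808 in the toyocamycin samples, against 1119, 1151 and 1194 in the Control samples (log2 change 1.36, SE 0.064, adjusted p = 4.47e-14). Ltv1, a factor of late particles, rose 2.47-fold, Nob1, the nuclease that makes the final cut at the end of 18S RNA, 2.19-fold, and Riok2, a related kinase of the cytoplasmic particle, 2.06-fold, with 10.6% of its exon bases overlapped by Gm26873. Tsr1 rose 1.9-fold, but 32.3% of its exon bases overlap the opposite-strand gene Srr and the sources used here do not give the strand setting of the counting. Pno1, the partner of Nob1, had 1392, 1557 and 1377 in the toyocamycin samples, against 1149.8, 1138 and 1116 in the Control samples and a log2 change of 0.34, which was −0.01 with equal totals. Rrp12, a repeat protein that helps export, was the exception, with 589, 581 and 523 in the toyocamycin samples, against 1114, 1126 and 1001 in the Control samples (log2 change −0.94, SE 0.084, adjusted p = 2.22e-09). Its direction held with equal totals (−1.28). Within a sample, Riok1 over Rrp12 was 4.99, 5.43 and 5.37 with toyocamycin, against 1.00, 1.02 and 1.19 in Control.

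Early large subunit factors had, with the RNA polymerase I genes, a low median, above only that of the H/ACA snoRNP genes (−0.11, and −0.45 with equal totals). Of 9, 6 were higher, 1 lower and 2 did not pass, with a median log2 change of 0.29, and with equal totals 2 were higher, 3 lower and 4 did not pass, with a median of −0.06. Among all genes tested, 32.8% were higher and 33.1% lower, or 24.9% and 42.5% with equal totals. Rrs1, which helps bring in the 5S particle, had 3209, 3695 and 3264 in the toyocamycin samples, against 1207, 1183 and 1174 in the Control samples (log2 change 1.51, SE 0.064, adjusted p = 9.82e-15). Nip7 was the other strong riser, 2.24-fold. The trio Bop1, Pes1 and Wdr12 forms the PeBoW complex, needed to make the large subunit RNA. Bop1 had 3348, 3492 and 3326 in the toyocamycin samples, against 2739, 2749.6 and 2831 in the Control samples. Pes1 had 2219, 2399 and 2280.3 in the toyocamycin samples, against 1809, 1818 and 1976 in the Control samples. Wdr12 had 762, 786 and 698 in the toyocamycin samples, against 568, 616 and 650.4 in the Control samples. Each was slightly higher without overlap, with log2 changes of 0.29, 0.30 and 0.29. With equal totals these values were −0.06, −0.05 and −0.06 and none passed, and with quantile normalization Bop1 was called lower (−0.15, adjusted p = 0.00547) and Pes1 did not pass (−0.01). Of the Pes1 transcript windows, 22.6% occur in other genes. The ratio of Bop1 to Pes1 was 1.51, 1.46 and 1.46 with toyocamycin, against 1.51, 1.51 and 1.43 in Control, and these ranges overlapped.

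Nop2, a methyltransferase of the large subunit RNA, had 2318, 2691 and 2324 in the toyocamycin samples, against 1981, 2048 and 2136 in the Control samples (log2 change 0.25, adjusted p = 0.00236), and its sign also turned with equal totals (−0.10) and quantile normalization (−0.09), with no call in either. Rrp1 had 4536, 4582 and 4334 in the toyocamycin samples, against 4489, 4347 and 4581 in the Control samples. Ebna1bp2 had 2014, 2346 and 2003 in the toyocamycin samples, against 2194, 2195 and 2206 in the Control samples. For both the groups overlapped and the test did not pass (adjusted p = 0.956 for Rrp1 and 0.479 for Ebna1bp2), while equal totals and quantile normalization each called both lower (with equal totals −0.35 and −0.40). Nop16 was lower, with 453, 499.7 and 374 in the toyocamycin samples, against 695, 721 and 722 in the Control samples (log2 change −0.70, SE 0.1, adjusted p = 4.24e-06). The ratio of Rrs1 to Nop16 was 7.08, 7.39 and 8.73 with toyocamycin, against 1.74, 1.64 and 1.63 in Control.

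The late large subunit factors held both the most positive and the most negative change of all protein-coding members. Of 6, 5 were higher and 1 lower with a median log2 change of 0.69, and with equal totals 3 were higher and 1 lower with a median of 0.34. Gnl3 (chromosome 14, 31012433 to 31019152, − strand of mm10) encodes nucleostemin, a GTPase known from stem cells and dividing cells. It had 5795, 5937 and 5594 in the toyocamycin samples, against 1530.3, 1572 and 1733 in the Control samples (log2 change 1.84, SE 0.059, adjusted p = 1.06e-16). Gnl2, a related GTPase of nuclear particles, rose 2.67-fold and Las1l, the endonuclease that cuts the second internal spacer, 1.79-fold. Nvl (chromosome 1, 181087138 to 181144204, − strand of mm10) encodes an ATPase that strips factors from early particles. It had 761, 871 and 809 in the toyocamycin samples, against 2116, 2081 and 2133 in the Control samples, so every toyocamycin sample was under every Control sample (log2 change −1.38, SE 0.069, adjusted p = 1.5e-13). Mdn1, the other ATPase of this step, had 4795, 4939 and 4533 in the toyocamycin samples, against 3908, 4250.4 and 3321 in the Control samples. Control replicate 3 was low for Mdn1, and the log2 change of 0.32 became −0.03 with equal totals (no call), and with quantile normalization Mdn1 was called lower (−0.17, adjusted p = 0.0492). Mrto4, which holds the place of the stalk protein, had 669.6, 688 and 685 in the toyocamycin samples, against 514, 408 and 494 in the Control samples. Its log2 change of 0.53 did not pass with equal totals (0.19, adjusted p = 0.111), and 25.8% of its transcript windows occur in other genes. The ratio of Gnl3 to Nvl was 7.62, 6.82 and 6.92 with toyocamycin, against 0.723, 0.755 and 0.812 in Control, a 9.32-fold difference of means and the widest of the 11 ratios of members.

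**Figure D5:**
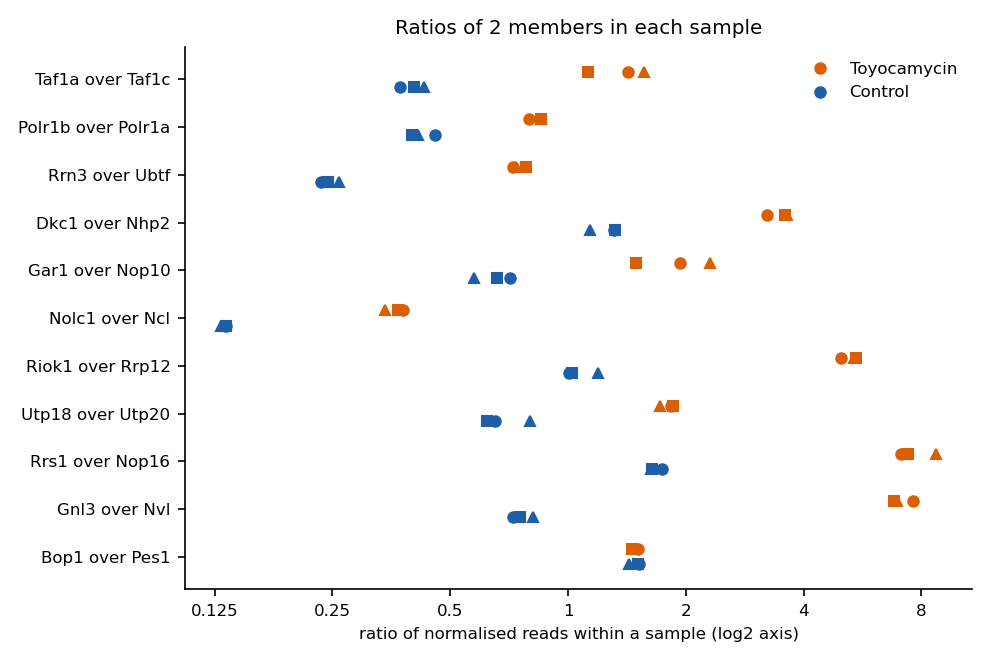
Ratio of the normalised reads of 2 members within each sample (x axis, log2-spaced) for 11 pairs chosen after their values were seen; orange, toyocamycin, and blue, Control, with circle, square and triangle for replicates 1, 2 and 3. Scaling of samples cancels in a ratio; all pairs but Bop1 over Pes1 are apart, with Gnl3 over Nvl at 6.82 to 7.62 against 0.723 to 0.812.

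These 11 pairs of members were picked after their values were seen, as were Rn18s and Rn45s, so the ratios are descriptions without a test.

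Levels per length and gene structure set the members side by side in ways the list did not use. Per kilobase of annotated exon (GENCODE M21), Npm1 had the highest level in both groups, 3760 normalised reads per kb with toyocamycin and 2913 in Control. The lowest levels were Nvl at 60.3 per kb with toyocamycin and Wdr12 at 51.2 in Control. Across 52 members, the Control level per kb and the log2 change were nearly unrelated (Pearson r = −0.07, Spearman rho = −0.07, across genes, which are not independent). In 8 members GENCODE places small nucleolar RNA genes within the gene on the same strand: Taf1d, Nop56, Nop58, Dkc1, Ncl, Wdr43, Tsr1 and Gnl3. Of these 8, 7 were higher and 1 lower, with a median log2 change of 1.06, against 31 higher and 10 lower of 44 without one and a median of 0.36. With equal totals the 8 were 6 higher and 1 lower with a median of 0.71, against 20 higher and 13 lower of the 44 with a median of 0.01. All genes tested were 32.8% higher and 33.1% lower, or 24.9% and 42.5% with equal totals. The part of these small RNAs in the result was not tested.

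Base composition moved with the change as well. The median GC content of the longest transcript was 47.2% in higher and 50.8% in lower members. Over 14254 genes tested with such a transcript, the median log2 change was 0.38 in the 2851 genes lowest in GC and −0.35 in the 2851 highest. Across 52 members, GC content and log2 change had Pearson r = −0.21 and Spearman rho = −0.26. The part of GC content in the members' changes was not tested.

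Other genes of the pathway gave a similar mix. Of 113 other ribosome assembly factors, all above the filter, 72 were higher (63.7%), 24 lower (21.2%) and 17 did not pass, with a median log2 change of 0.47. Of all genes tested, 32.8% were higher and 33.1% lower. With equal totals 57 of the 113 were higher and 39 lower, and the median was 0.12. Of all genes, 24.9% were then higher and 42.5% lower. Of 50 large subunit factors 36 were higher and 8 lower (31 and 15 with equal totals). Of 41 small subunit factors 25 were higher and 12 lower, but 16 and 16 with equal totals. Of 9 snoRNP assembly factors 6 were higher and 1 lower (5 and 2 with equal totals). Of 13 polymerase genes 5 were higher (38.5%) and 3 lower (23.1%), with 5 and 6 at equal totals. Their higher share was near that of all genes. Brix1, a large subunit factor, had 5570.4, 6176 and 5249 in the toyocamycin samples, against 1185, 1143 and 1349 in the Control samples (log2 change 2.21, SE 0.07, adjusted p = 9.69e-17). Zfp622, a factor of cytoplasmic large subunits in yeast, rose 4.01-fold (log2 change 2.00), and Nufip1, which assembles box C/D snoRNPs, 3.97-fold (log2 change 1.99). Pih1d1, a subunit of the chaperone complex that works beside Nufip1, went the other way, with 95.1, 104 and 71.6 in the toyocamycin samples, against 690.4, 678 and 704 in the Control samples (log2 change −2.94, SE 0.15, adjusted p = 1.54e-13). Wdr46, Tbl3 and Ddx56, the first 2 in the small and the last in the large subunit path, were lower with log2 changes of −1.91, −1.66 and −1.53.

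RNA components were close to the detection limit apart from Rn18s. At 3 reads per library the normalised count is 2.54 to 3.96 in toyocamycin samples and 2.63 to 2.72 in Control. Rpph1, the RNA of ribonuclease P, had 17.2, 21.2 and 13.4 in the toyocamycin samples, against 4.53, 0.878 and 3.51 in the Control samples (log2 change 2.32, SE 0.61, adjusted p = 0.00225). Its Control values lay around that limit, and its log2 change was 1.49 with a pseudocount of 5 and 2.75 with a pseudocount of 0.1. Rmrp, the RNA of the related enzyme that cuts the precursor, had 0, 0 and 4.86 in the toyocamycin samples, against 5.44, 0 and 0 in the Control samples, and Snord14d and Snora73a, both guides of small subunit RNA processing or modification, had at most 7.90 and 19.3 in any sample. These last 3 did not pass.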

How the data were processed

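RNA of 3 toyocamycin and 3 Control samples was extracted with TRIzol and made into standard Illumina libraries, per the labels' protocols. The authors used cutadapt 4.7, FastQC and the build mm10, per the submitters' processing notes; the sources used here do not give the aligner, counter, strand setting or annotation. The file name of the deposited table says FPKM, but the values hold a signal not scaled by length: in each sample 100% of values are whole multiples of 1 read's value (tolerance 0.01 reads), equal for all genes, so they are reads divided by 1 size factor (0.757 to 1.18), and whole reads were recovered. All 6 columns were matched by group letter and replicate number, and 0 other columns exist.

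Of 25865 genes, 16223 had a mean value of 1 or more across all samples and were tested on log2(value + 1) in limma 3.58.1 with a trend (R 4.3.3). The test was two-sided, p was adjusted by Benjamini-Hochberg over every gene tested, and the threshold was 0.05. Each SE printed for limma is drawn toward those of genes of similar level, so it is not the gene's own replicate spread. The pseudocount of 1 makes fold changes of low genes too small; folds in the text are ratios of means. The procedure was tested on simulated data with few genes changed, as many up as down, and known size factors. That test therefore does not cover the choice of scaling. Alternatives were 3 other scalings, 2 pseudocounts, 2 filters, edgeR 4.0.16 and DESeq2 1.42.0 on recovered reads, a replicate block, and leaving out each sample. No label says whether replicates were separate cultures or mice: the p-values then cover only how these samples vary, and that variation may be technical. Replicates differed beyond sampling noise, with chi-square over its degrees of freedom from 3.87 to 7.4. Bounds at 3 reads cover counting error only.

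The members, lists and the motif were chosen with earlier results of these data known. Every member may be named; values per sample are given for Rn45s, for the most positive and most negative member of each step, and for members that did not pass or changed direction with another scaling. Of other pathway genes, the 4 most positive and 4 most negative called genes are named, and RNA components above the filter. Values of Taf1c, Dkc1, Polr1e, Nop10 and Mrto4 were added after they were seen. Marker lists besides the ILC2 list (11 genes) were summed within each sample, and the lowest and highest sums follow. T cell sums were 194 to 239 with toyocamycin and 190 to 215 in Control. In the same order, sums were 170 to 199 and 189 to 206 for ILC3 and NK cells. B cell sums were 20.6 to 22.5 and 14.9 to 30.8. For macrophages and dendritic cells they were 1063 to 1547 and 877 to 1287. Sums were 202 to 215 and 176 to 253 for epithelium, and 624 to 829 and 1137 to 1332 for fibroblasts and endothelium, the latter mostly Pecam1. Fcer1a and Krt20 were at 0 in all samples, and the mast cell sum (43106 to 46746 and 29291 to 30746) was nearly all Kit. Their part in the members' changes was not tested.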

Additional observations from a re-analysis of the deposited data

How the results depend on the processing

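Of the 52 members other than Rn45s, 33 (26 higher and 7 lower) kept direction and call in all 16 alternatives, and Rn45s did too. Members called ran from 27 to 39 higher and 9 to 15 lower. Scaling mattered most. With equal totals the members' median log2 change was 0.236, 39 other assembly factors were lower, and these log2 changes turned: Polr1b −0.0155, Taf1b −0.11, Nop14 −0.31, Heatr1 −0.0588, Pno1 −0.0055, Nop2 −0.10, Rrp1 −0.35, Bop1 −0.0603, Pes1 −0.0483, Wdr12 −0.0566, Mdn1 −0.0289. Leaving Rn45s out of the totals gave a median of 0.243, 39 lower other factors and Polr1b −0.0081, Taf1b −0.0979, Nop14 −0.30, Heatr1 −0.0513, Nop2 −0.0943, Rrp1 −0.34, Bop1 −0.0529, Pes1 −0.0409, Wdr12 −0.0492, Mdn1 −0.0215. Quantile normalization gave a median of 0.45 and Npm1 −0.13, Nop14 −0.31, Heatr1 −0.17, Nop2 −0.0935, Rrp1 −0.48, Bop1 −0.15, Pes1 −0.0087, Mdn1 −0.17. With edgeR on recovered reads the uncalled Nop14 was −0.0007 and Rrp1 −0.0357. The cause was not tested.

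With 1 sample left out, members higher ran from 38 to 39 and lower from 9 to 12, all genes higher from 5042 to 5220 and lower from 4975 to 5264, other factors higher from 70 to 72 and lower from 21 to 24, the median from 0.54 to 0.62 and Rn45s from 2.07 to 2.81. Among uncalled genes that turned sign, log2 changes ran from −0.0167 to 0.028 for Rrp1, −0.90 to 0.85 for Rmrp, −0.51 to 0.13 for Snord14d and −0.69 to 0.0211 for Snora73a. Ebna1bp2 was called lower without toyocamycin replicate 2. The call of Taf1c also ended with a pseudocount of 0.1, without a filter and with DESeq2. With the replicate block, 39 members were higher and 11 lower, 5272 genes were higher and 5298 lower, and no member's call changed. Same-numbered samples correlated at −0.01, 0.02 and −0.04 in their deviations from group means. Differently numbered samples correlated from −0.0857 to 0.0808, so no deviation shared by number was seen. Whether samples were paired by culture or mouse remains unknown. The lowest count of any member in any sample was 103 reads, while the RNA components other than Rn18s were within a few reads of 0 in some samples.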
